A study of Homo sapiens with 4 samples.

Results

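A cassette exon whose length is not a multiple of 3 shifts the reading frame of its messenger RNA when it is skipped, and 1686 such exons are described here. They are distinct skipped exons of at least 76 and under 1000 nt that match an exon lying wholly inside the coding span of a GENCODE v29 transcript. Each had at least 10 isoform-specific reads in both groups of the study, and exons with both flanking introns under 500 nt, or both of 5000 nt or more, were left out. The 1686 exons lay in 1374 genes and were taken from 8228 exons that met the read minimum, out of 39120 distinct skipped exons listed for both groups. Of the exons that met every other part of the rule, 4185 had too few reads. At the edge of the read minimum, 145 exons had exactly 10 reads in their thinner group, with a median difference in Ψ of -0.10 and 3 called, and 122 had 9, with a median of -0.11 and 2 called.

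The cells were MDA-LM2, a highly metastatic derivative of the human triple-negative breast cancer line MDA-MB-231. They were transfected by lipofection with an RNA mimetic of the structured splicing enhancer (the SSE mimetic) or with a scrambled oligo. Cells given the first are called mimetic-treated here, and cells given the second control cells. No other agent, genotype or time is named in the labels, and both groups shared the line and the medium. RNA-seq libraries from total RNA were made from 2 samples per group, and the deposited exon tables hold 1 pooled read set per group, so no spread between replicates can be attached to any value. Whether the samples within a group were separate cultures is not stated in the labels. Of the mesenchymal-like breast cancer markers, CD44 had up to 1398 reads in mimetic-treated cells and 10893 in control cells at its best covered cassette exon, AXL 226 and 1090, and ANXA1 16 and 243. Luminal markers (ESR1, PGR, GATA3 and CDH1) had at most 15 and 31 reads, blood markers (PTPRC and CD3E) at most 27 and 29, and VIM, CAV1, MSN, EPCAM, KRT18 and HBB have no cassette exon listed.

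When a frame-shifting exon is left out, translation continues in another frame and usually meets a stop codon soon after the new junction. A stop codon that lies well upstream of the last exon junction marks the messenger for nonsense-mediated decay, the pathway that degrades transcripts with premature stops. Some cassette exons work the other way round: including them brings in the premature stop, and such poison exons are a known means of lowering the output of a gene without changing its transcription. Because decay removes transcripts, the inclusion level in steady-state RNA reflects both splicing and the survival of each isoform.

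The sequences show both situations for some of the exons named below, of which those of FXYD5 and GATAD1 were not called. In the first set the exon is left out. Each run gives the last 24 bases of the upstream exon joined to the downstream exon, up to the first in-frame stop codon. The stop codon is in capitals (GENCODE v29 transcripts, GRCh38). The joined sequences come from annotated transcripts, not from reads. At the exons listed next, skipping reads in mimetic-treated cells numbered 3 at SIKE1 and 0 at each of the others. In control cells they numbered 1 each at ANXA5 and PTTG1IP and 0 at the others. The skipped exons are those of SEC31A at chr4:82880799-82880922 (minus strand), ANXA5 at chr4:121684677-121684771 (minus), PDLIM5 at chr4:94575616-94576034 (plus), MBNL1 at chr3:152447620-152447773 (plus), ANLN at chr7:36415758-36415884 (plus), PTTG1IP at chr21:44861163-44861271 (minus) and SIKE1 at chr1:114780110-114780215 (minus).
SEC31A: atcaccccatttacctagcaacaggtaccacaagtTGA
ANXA5: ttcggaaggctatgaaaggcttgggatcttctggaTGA
PDLIM5: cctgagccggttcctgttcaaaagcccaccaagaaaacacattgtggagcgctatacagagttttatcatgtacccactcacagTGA
MBNL1: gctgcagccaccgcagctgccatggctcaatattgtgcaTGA
ANLN: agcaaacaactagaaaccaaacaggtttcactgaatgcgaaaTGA
PTTG1IP: gaagagtgcctgaagaacgtctccTGA
SIKE1: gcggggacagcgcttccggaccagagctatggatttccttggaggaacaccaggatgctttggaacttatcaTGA
In PTTG1IP the stop codon begins at the first base of the downstream exon, in SEC31A and ANXA5 after 11 bases, in MBNL1 after 15, in ANLN after 18, in SIKE1 after 48 and in PDLIM5 after 60. Each of these stops lies more than 50 nt upstream of the last exon junction, by the distances of 3266 nt in SEC31A, 700 in ANXA5, 928 in PDLIM5, 188 in MBNL1, 1708 in ANLN, 216 in PTTG1IP and 206 in SIKE1.

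In the second set the exon is included: each run starts at the first base of the exon and ends with the stop codon, in capitals, that the annotated decay transcript reaches. The exons are those of EZH2 at chr7:148836822-148837000 (minus strand, 179 nt), FXYD5 at chr19:35156844-35156974 (plus, 131 nt) and GATAD1 at chr7:92449092-92449213 (plus, 122 nt).
EZH2: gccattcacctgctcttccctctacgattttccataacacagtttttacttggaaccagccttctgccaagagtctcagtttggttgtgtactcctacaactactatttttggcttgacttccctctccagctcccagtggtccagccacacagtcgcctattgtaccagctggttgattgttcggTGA
FXYD5: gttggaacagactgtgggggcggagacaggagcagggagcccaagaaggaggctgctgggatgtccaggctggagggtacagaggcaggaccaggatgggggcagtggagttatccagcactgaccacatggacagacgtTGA
GATAD1: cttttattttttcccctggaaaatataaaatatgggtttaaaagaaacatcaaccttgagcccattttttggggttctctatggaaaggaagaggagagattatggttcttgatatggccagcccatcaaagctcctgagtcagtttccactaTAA
The stop begins 186 nt after the first base of the exon in EZH2, 140 nt in FXYD5 and 153 nt in GATAD1, each just past the exon's own end. It lies 810 nt upstream of the last junction in EZH2, 414 nt in FXYD5 and 210 nt in GATAD1.

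For 1430 of the 1686 exons the frame could be followed in a protein_coding transcript that holds the exon between the flanks of the measured event. Removing the exon brought an in-frame stop in 1420 of them, at a median of 34 nt after the new junction (quartiles 13 and 74), and within 100 nt in 1197. The stop codon was TGA in 844, TAA in 337 and TAG in 239. In 1090 exons, 76.8% of the 1420, the stop lay more than 50 nt upstream of the last junction. The median exon began after 28.8% of the coding sequence (quartiles 12.3% and 54.1%). Exons of length 3k + 1 numbered 852 and those of length 3k + 2 numbered 834, and the median length was 142 nt (76 to 989).

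The inclusion level Ψ is the fraction of a gene's transcripts that hold the exon, and each value is the authors' posterior mean from MISO with its 95% credible interval, which covers the counting of reads and not the spread between samples. Reads are sorted into inclusion reads (exon body or its junctions), skipping reads (the junction that bypasses the exon), shared reads (in the flanking exons, compatible with both isoforms) and reads that fit neither isoform. An exon was called when, in the authors' deposited table, the Bayes factor for a difference reached 10 and the difference in Ψ reached 0.1 in size. Fisher's exact test, two-sided, was run on inclusion and skipping reads with Benjamini-Hochberg adjustment over all 8228 tested exons, and compares 2 pooled read sets, not conditions.

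Most frame-shifting exons were nearly always included. The median Ψ was 0.94 in control cells and 0.86 in mimetic-treated cells, and 1093 exons (64.8%) had a Ψ above 0.9 in control cells. No skipping read was seen in either group for 1156 exons (68.6%), whereas 183 had at least 1 in both groups. Over all members, 97.2% of isoform-specific reads were inclusion reads in mimetic-treated cells (61132 of 62912, 95% exact binomial interval 97.0 to 97.3%) and 96.7% in control cells (330440 of 341847, 96.6 to 96.7%). These intervals cover counting error only, since reads from amplified libraries are not independent molecules.

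With the SSE mimetic, 6 members were called higher and 15 lower, and 1665 were not called. Over all 8228 tested exons, 3.1% were called higher and 0.887% lower, so the 15 lower calls (0.89% of members) lay at the background share, and the 6 higher calls (0.356%) lay below it. Fisher's exact test passed for 1 member, the EZH2 exon, against 1.01% of all tested exons, and 20 members had an unadjusted p under 0.05, with a larger inclusion share under the SSE mimetic in 10 and a smaller one in 10. The median difference in Ψ was -0.06 (quartiles -0.10 and -0.01), with 292 members above 0 and 1347 below, beside a median of -0.03 over all tested exons.

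**Figure D1:**
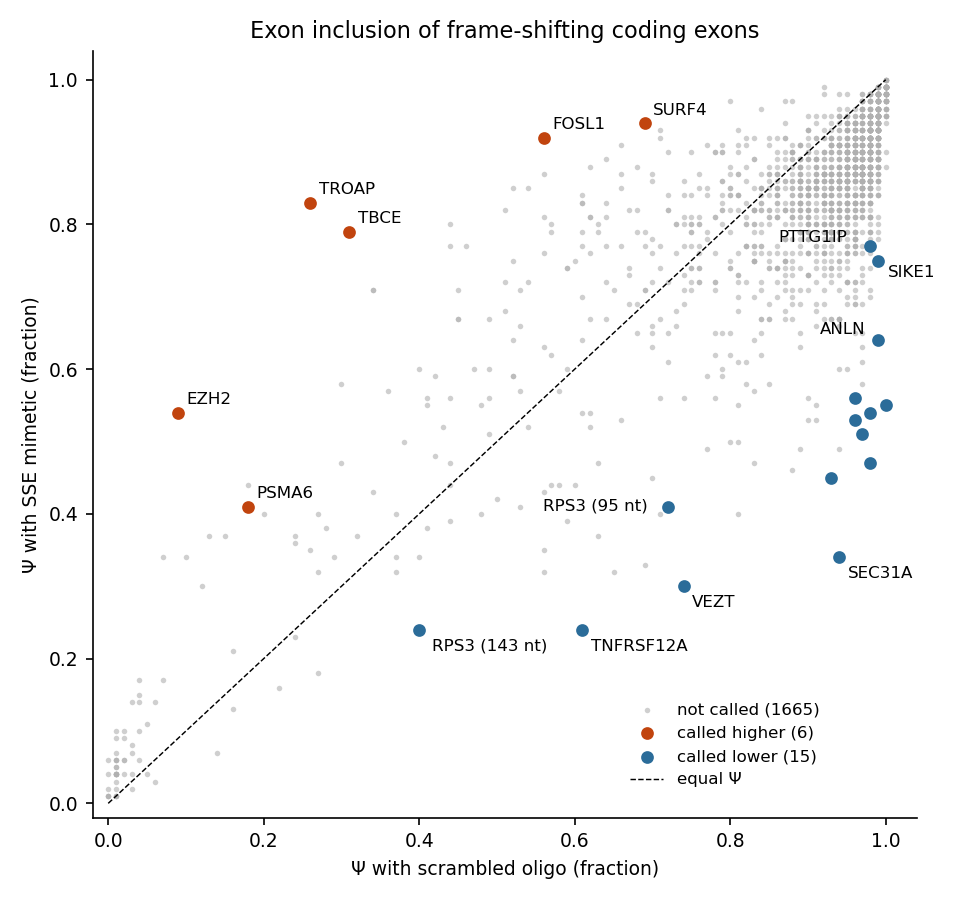
Ψ of the 1686 frame-shifting exons in control cells (x axis, fraction) and in mimetic-treated cells (y axis, fraction), 1 point per exon and 1 pooled read set per group. Grey points were not called, and the 6 exons called higher and 15 called lower are coloured. Most points crowd at the top right, where 1093 exons have a Ψ above 0.9 in control cells, and most of the exons called lower start from there.

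The small negative median moved with read depth. Members with 10 to 19 isoform-specific reads in mimetic-treated cells (857 exons) had a median difference of -0.08, those with 20 to 49 (599) -0.05, those with 50 to 99 (136) -0.02 and those with 100 or more (94) -0.01. The SSE mimetic read set held a median of 19 isoform-specific reads per member and the scrambled set 89. Recomputed with a 2-isoform model at full depth, the median difference was -0.0463. With the same model and the scrambled reads multiplied by 0.2051, the ratio of isoform-specific reads over all tested exons (called scaled scrambled reads here), it was 0.0052. This is 1 factor for every exon and read class: over the members the scrambled set held 5.43 times the isoform-specific reads of the mimetic set and 2.10 times the reads that fit neither isoform.

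By the level in control cells, which itself enters the difference, the medians ran as follows. Among the 48 members with a Ψ of at most 0.1 the median difference was 0.04, among the 60 above 0.1 and up to 0.5 it was 0.12, among the 485 up to 0.9 it was -0.03, and among the 1093 above 0.9 it was -0.07. With scaled scrambled reads the medians of the same 4 classes were 0.0161, 0.0625, 0.072 and -0.0032, so the sign of the class up to 0.9 turned and the shift above 0.9 was nearly gone. Of the 15 lower calls, 11 came from exons above 0.9, where the call rule allows no higher call. Frame-preserving exons chosen by the same rule (1575 exons, length a multiple of 3) had medians of 0.03, 0.18, -0.03 and -0.07 in the same 4 classes. Of the frame-preserving exons, 26 were called higher (1.65%) and 25 lower (1.59%), beside 0.356% and 0.89% of the frame-shifting exons. Of the 26 higher calls, 18 came from the class above 0.1 and up to 0.5, which held 110 frame-preserving exons. In the same class 3 of 60 frame-shifting exons were called higher, and 162 of 895 over all tested exons. No test of the difference between the 2 kinds of exon was made, since neither read set has replicates.

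**Figure D2:**
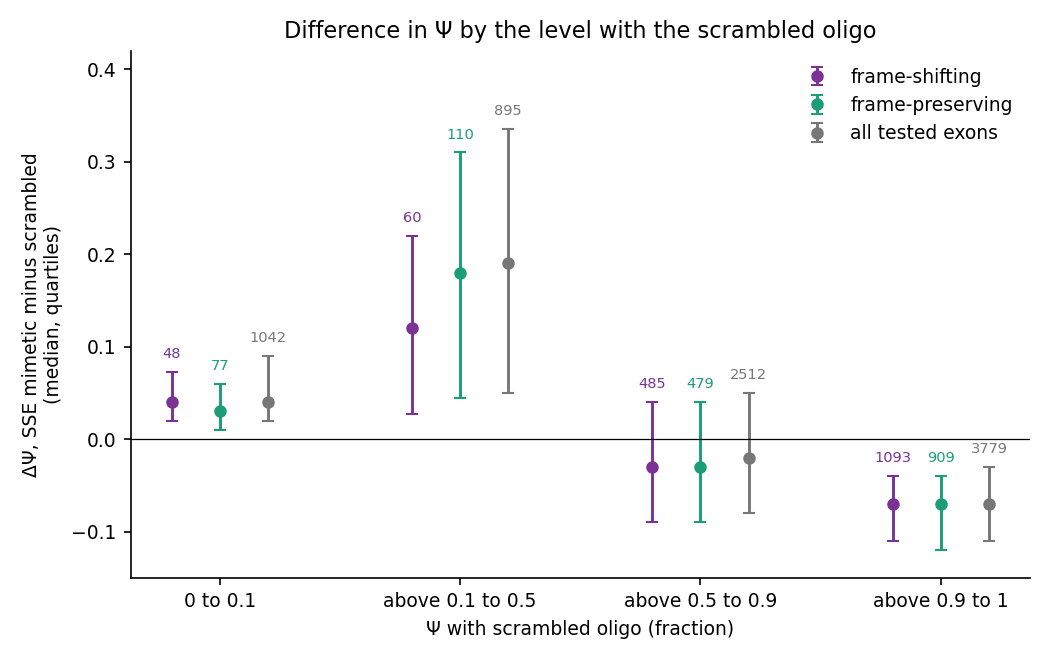
Median difference in Ψ (y axis, SSE mimetic minus scrambled oligo) by the Ψ in control cells (x axis, 4 classes) for frame-shifting exons, frame-preserving exons and all tested exons. Bars run between the quartiles and the numbers give the exons in each class. At the deposited depths all 3 series lie above 0 in the 2 lower classes and below 0 in the 2 upper ones; with scaled scrambled reads, not drawn, the frame-shifting medians of the 2 upper classes were 0.072 and -0.0032.

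The exons called lower lay in 14 genes of varied function. In SEC31A, which encodes an outer coat subunit of COPII vesicles, an exon of 124 nt (exon 3 of 27) had a Ψ of 0.34 (0.17 to 0.55) in mimetic-treated cells and 0.94 (0.82 to 1.0) in control cells. In ANXA5, which encodes the calcium-dependent phospholipid-binding protein annexin A5, the 95-nt exon (exon 4 of 13) was at 0.47 (0.37 to 0.58) and 0.98 (0.95 to 1.0). Their intervals lay well apart, and the differences in the authors' deposited table were -0.60 and -0.51.

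Among the 60 members from genes of the cytoskeleton and adhesion, 3 were called lower and 0 higher, beside 0.887% lower and 3.1% higher over all tested exons. Over all 324 tested exons of the same genes, 11 were called lower and 10 higher. CAPZA2, which encodes an alpha subunit of the actin filament capping protein, had an 80-nt exon at 0.51 (0.31 to 0.72) in mimetic-treated cells and 0.97 (0.90 to 1.0) in control cells. PDLIM5, a PDZ and LIM domain protein of actin-anchored structures, had a 419-nt exon at 0.54 (0.38 to 0.73) and 0.98 (0.91 to 1.0). ANLN encodes anillin, a scaffold of the cytokinetic ring, and its 127-nt exon was at 0.64 (0.47 to 0.81) and 0.99 (0.96 to 1.0). All 3 were near full inclusion in the control and between 0.51 and 0.64 in mimetic-treated cells. Only 1 of 9 protein_coding transcripts that span the PDLIM5 exon holds it in this form, and 2 of 3 hold the ANLN exon.

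In HSP90AA1, the gene of the inducible cytosolic HSP90 chaperone, the 160-nt exon (chr14:102085965-102086124) was at 0.55 (0.47 to 0.63) in mimetic-treated cells and 1.0 (0.99 to 1.0) in control cells. This exon also lies inside an annotated exon of 367 nt, and its upstream intron is 92 nt long. MBNL1, a splicing regulator whose own exons are alternatively spliced, had a 154-nt exon at 0.56 (0.32 to 0.83) and 0.96 (0.88 to 1.0). It was 1 of 75 members from splicing and RNA processing genes, the only one of them called. Over all 356 tested exons of these genes, 9 were called lower and 15 higher.

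RPS3, a protein of the small ribosomal subunit, had 2 overlapping forms of an exon that share their downstream end, so they are not independent. The 95-nt form (chr11:75402352-75402446) was at 0.41 (0.29 to 0.54) in mimetic-treated cells and 0.72 (0.63 to 0.81) in control cells, and the longer form, which starts at 75402304, at 0.24 (0.17 to 0.32) and 0.40 (0.35 to 0.46). RPS3 has 4 annotated processed pseudogenes, and how reads shared with them were placed is not given in the sources used here. SIKE1, a suppressor of the kinase IKK-epsilon, had a 106-nt exon at 0.75 (0.56 to 0.89) and 0.99 (0.96 to 1.0). PTTG1IP, which encodes a protein that binds securin, had a 109-nt exon at 0.77 (0.68 to 0.87) and 0.98 (0.95 to 1.0).

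TNFRSF12A, the receptor of the cytokine TWEAK, had a 131-nt exon (chr16:3021189-3021319) at 0.24 (0.11 to 0.40) in mimetic-treated cells and 0.61 (0.46 to 0.77) in control cells. It was the only exon called lower that is coding solely in a transcript annotated for decay. A further 3 members were called lower but had too few reads for the naming rule; they were singled out after their values were known. They are VEZT (adherens junction protein vezatin, 0.30 against 0.74), ZC3H7A (a CCCH zinc finger protein, 0.45 against 0.93) and the exon shared by GGCT and AC005154.5 (0.53 against 0.96). GGCT encodes gamma-glutamylcyclotransferase, an enzyme of glutathione breakdown. With scaled scrambled reads the calls of ANLN, MBNL1, SIKE1, TNFRSF12A, VEZT, ZC3H7A, GGCT and the longer RPS3 form were lost, and those of ANLN, MBNL1, VEZT and TNFRSF12A were also lost in the 2-isoform model at full depth.

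**Figure D3:**
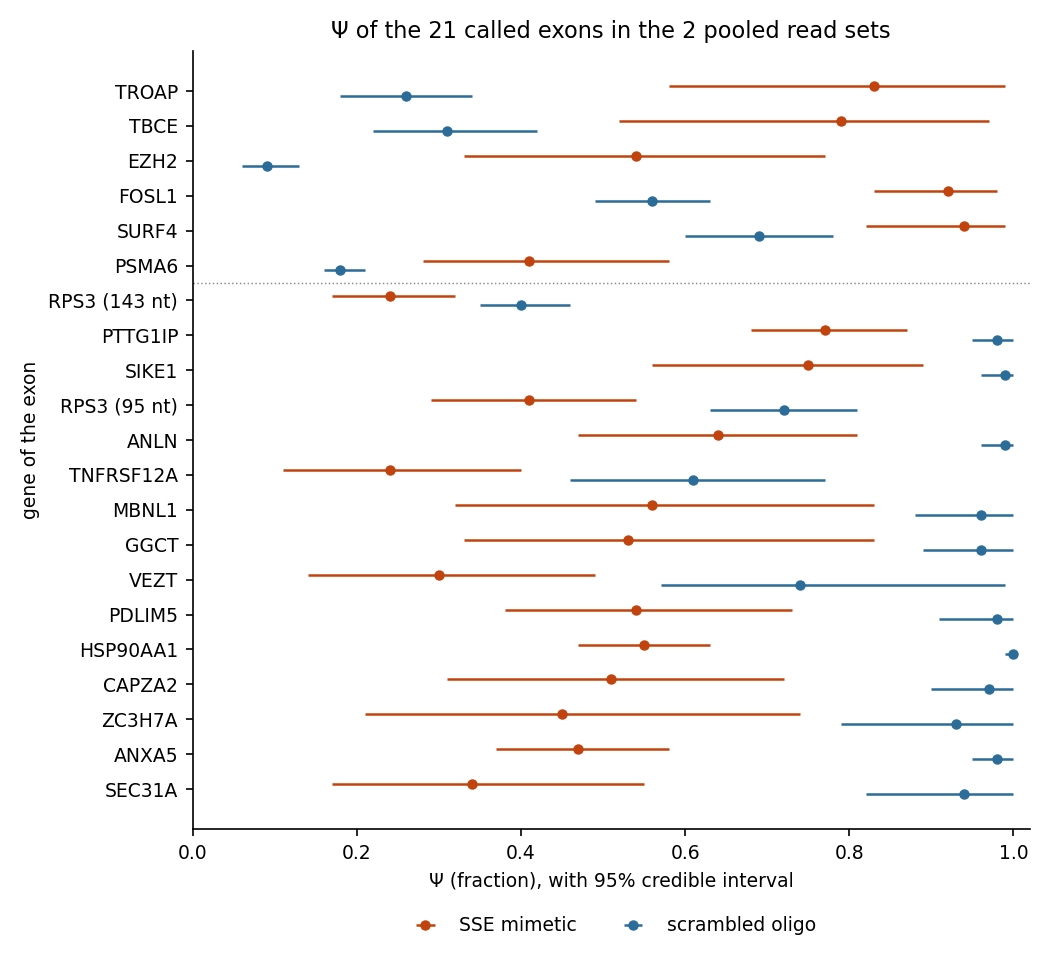
Ψ (x axis, fraction) of the 21 called exons in mimetic-treated cells (SSE mimetic) and in control cells (scrambled oligo), 1 row per exon, ordered by the difference. Points are posterior means of 1 pooled read set per group and bars are 95% credible intervals. The intervals of the 2 groups lie apart in all 6 exons called higher (above the dotted line) and all 15 called lower. Over all 1686 members they lie apart in 36. Calls and intervals rest on the same reads, so the gap is no separate evidence for a call.

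Skipping reads were almost absent at the exons called lower. At the ANXA5 exon, 87 inclusion reads and 0 skipping reads were counted in mimetic-treated cells, which allows a skipping share of up to 3.45% of these reads, and 491 and 1 in control cells. HSP90AA1 had 238 inclusion and 0 skipping reads (up to 1.26%) against 3433 and 0 (up to 0.087%). SEC31A had 12 and 0 against 131 and 0, and PTTG1IP 349 and 0 (up to 0.86%) against 1280 and 1. The 2 exons with a skipping read in mimetic-treated cells were those of SIKE1 and TNFRSF12A. SIKE1 had 19 inclusion and 3 skipping reads against 132 and 0, for which Fisher's exact test gave an adjusted p of 0.131. TNFRSF12A had 9 and 1 against 51 and 2.

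Over the 15 exons, 4 of 1026 isoform-specific reads in mimetic-treated cells were skipping reads. With reads of 76 nt, the length at which a 2-isoform model came closest to the deposited Ψ, the deposited Ψ values would place 212 of those 1026 reads on skipping junctions. For SIKE1 the model places 2.67 reads there, beside the 3 counted. With the scrambled oligo, 4 of 8189 reads were skipping reads, beside 191 by the model, of which the 2 RPS3 forms make up 48.0 and 92.6. The inclusion share was equal in both groups in 11 of the 15 exons, smaller in mimetic-treated cells in 2 and larger in 2.

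Where skipping reads are nearly absent, Ψ in a 2-isoform model rests on inclusion reads against shared reads. The direction of shared reads per inclusion read then follows from the call and is no separate evidence for it. Shared reads per inclusion read were more numerous in mimetic-treated cells at all 15 exons called lower. They were 5.42 against 1.58 at SEC31A, 2.82 against 0.941 at ANXA5, 2.54 against 1.09 at HSP90AA1 and 0.654 against 0.21 at PDLIM5. At all 6 exons called higher they were fewer. Over all members the median was 0.667 in mimetic-treated cells and 0.644 in control cells, and over all tested exons 0.7 and 0.737. Reads that fit neither isoform, which include intronic reads, came to a median of 10.7 per isoform-specific read in mimetic-treated cells and 5.31 in control cells over the members, and were more numerous in mimetic-treated cells in 1519 of 1686. Their part in the calls was not tested.

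**Figure D4:**
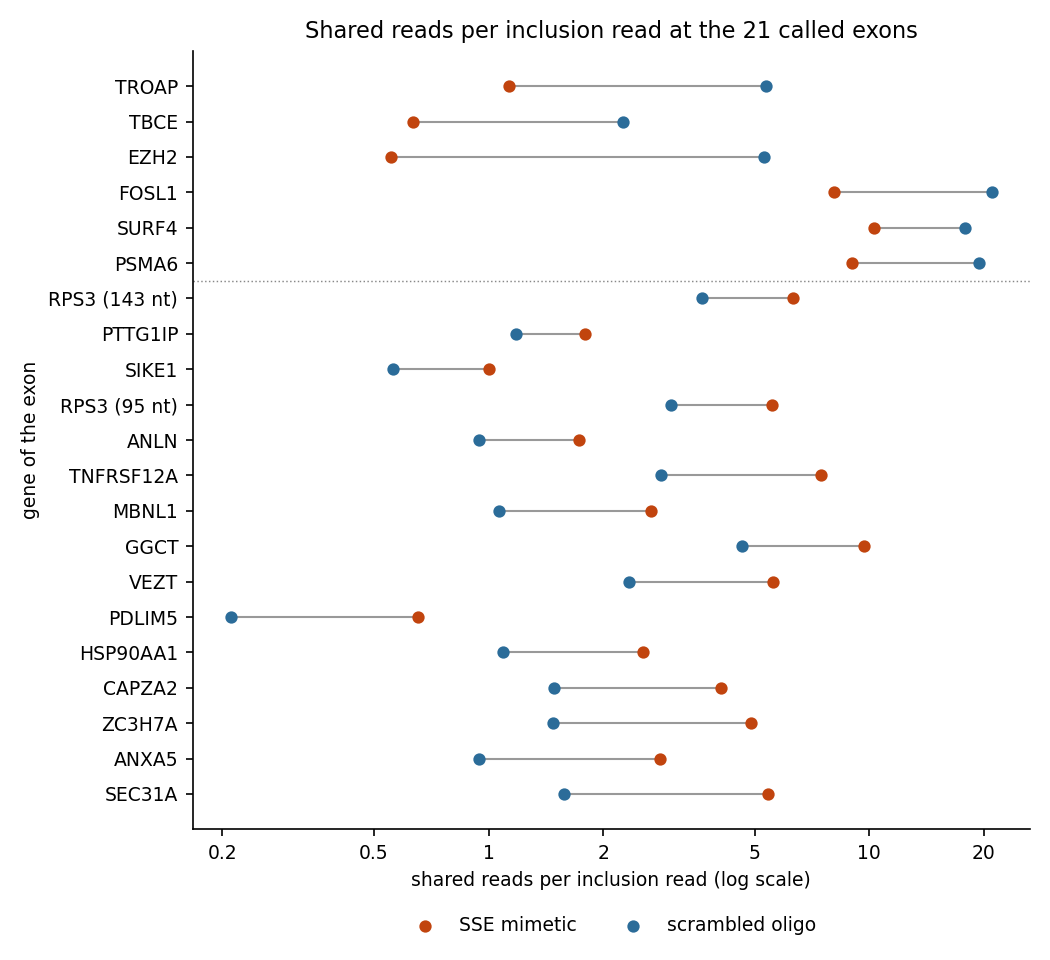
Shared reads per inclusion read (x axis, log scale) at the 21 called exons, in mimetic-treated cells and in control cells. The SSE mimetic lies to the right at all 15 exons called lower (below the dotted line) and to the left at all 6 called higher, from 0.556 against 5.29 at EZH2 to 10.3 against 17.8 at SURF4. Where skipping reads are nearly absent, this direction follows from the call.

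The 6 exons called higher lay in 6 genes. EZH2 encodes the catalytic subunit of Polycomb repressive complex 2, which methylates histone H3. Its 179-nt exon had a Ψ of 0.54 (0.33 to 0.77) in mimetic-treated cells and 0.09 (0.06 to 0.13) in control cells. It was covered by 18 inclusion and 5 skipping reads in mimetic-treated cells, a 78.3% inclusion share (exact 95% interval 56.3 to 92.5%), and by 21 and 53 in control cells, 28.4% (18.5 to 40.1%). The raw share is higher than Ψ because the exon body yields inclusion reads and only 1 junction yields skipping reads. The authors' deposited table gives a Bayes factor of 3892.7, and Fisher's exact test gave an adjusted p of 0.0102 over all tested exons.

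The skipping reads at EZH2 were close to what its Ψ implies: 5 beside 4.62 in mimetic-treated cells and 53 beside 55.4 in control cells. Reads that fit neither isoform were 31.0 per isoform-specific read in mimetic-treated cells and 14.4 in control cells at this exon, whose flanking introns are 9469 and 4071 nt long. After subtraction of an intron read density the recomputed difference was 0.44, and with scaled scrambled reads it was 0.45. The exon is coding only in the nonsense-mediated decay class of transcripts, and none of the 6 protein_coding transcripts that span it holds it.

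FOSL1, which encodes the AP-1 transcription factor FRA1, had a 103-nt exon (chr11:65894014-65894116) at 0.92 (0.83 to 0.98) in mimetic-treated cells and 0.56 (0.49 to 0.63) in control cells. It had 114 inclusion, 3 skipping and 921 shared reads against 274, 11 and 5742. This exon lies inside a second annotated form of 108 nt, a length that is a multiple of 3. Of the 4 protein_coding transcripts that span the exon, 1 holds the 103-nt form. PSMA6, an alpha subunit of the 20S proteasome, had a 95-nt exon (chr14:35314361-35314455) at 0.41 (0.28 to 0.58) and 0.18 (0.16 to 0.21), with 32 inclusion, 0 skipping and 288 shared reads against 268, 0 and 5204. PSMA6 has 4 annotated processed pseudogenes. SURF4, a cargo receptor of the endoplasmic reticulum, had a 187-nt exon at 0.94 (0.82 to 0.99) and 0.69 (0.60 to 0.78).

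TROAP, which encodes a spindle-associated protein needed in mitosis, had a 158-nt exon at 0.83 (0.58 to 0.99) in mimetic-treated cells and 0.26 (0.18 to 0.34) in control cells, and no skipping read in either group. The flanks of its measured event are not adjacent to the exon in an annotated transcript. TBCE encodes a cofactor of tubulin folding; its 220-nt exon was at 0.79 (0.52 to 0.97) and 0.31 (0.22 to 0.42) and had 19 isoform-specific reads in mimetic-treated cells, 1 below the naming rule, so it was singled out after its values were known. The calls of TBCE and SURF4 were lost with scaled scrambled reads. Apart from EZH2, the 5 exons called higher held 12 skipping reads in control cells, where their Ψ would place 316, and 3 in mimetic-treated cells, where it would place 20.4.

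A group of 38 members is coding only in transcripts annotated for decay. This split was made after values were seen. In the 28 whose frame could be followed the stop never lay inside the exon, which the rule fixes since the exon must lie wholly inside the coding span, and in 26 it came within 100 nt of the exon's end. Unlike the rest of the members these exons were mostly skipped: the median Ψ was 0.065 in control cells and 0.125 in mimetic-treated cells, against 0.94 and 0.86 in the 1648 others. Their Ψ was higher in mimetic-treated cells in 26 and lower in 12, and 2 were called, EZH2 higher and TNFRSF12A lower.

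Pooled over the 38 exons, 323 of 817 isoform-specific reads were inclusion reads in mimetic-treated cells (39.5%, exact interval 36.2 to 43.0%) and 1316 of 4863 in control cells (27.1%, 25.8 to 28.3%). Pooled shares weight the exons by their reads, which differ between the sets. Here the counted skipping reads were close to what the deposited Ψ implies: 494 beside 499 in mimetic-treated cells and 3547 beside 3682 in control cells. Of the 21 exons with a Ψ under 0.1 in the control, 20 had a higher Ψ in mimetic-treated cells and 1, in SON, a lower one. Of all 48 members at or below 0.1 in the control, 42 were higher and 3 lower. The 20 include 3 exons, 2 overlapping forms in MELK and 1 in CSTF3, with no inclusion read in either group. The median difference of the 38 was 0.035, and it was 0.0292 with the 2-isoform model, 0.0215 with scaled scrambled reads and 0.0137 after intron subtraction.

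The other exons of this group that differed most were not called, and were likewise singled out after their values were known. DEPDC1, a gene of mitotic progression, had a 257-nt exon at 0.37 (0.22 to 0.58) in mimetic-treated cells and 0.15 (0.13 to 0.18) in control cells, from 18 inclusion and 11 skipping reads against 122 and 297. This exon lies inside an annotated exon of 852 nt, and its difference of 0.22 became 0.0645 after intron subtraction. Its adjusted p by Fisher's exact test was 0.0542 over all tested exons and 0.0245 when only exons with a skipping read were tested. The authors' deposited table gives it a Bayes factor of 6.8, below the limit of 10. GATAD1, a chromatin-associated zinc finger protein, had 0.34 (0.13 to 0.65) and 0.07 (0.02 to 0.16), from 5 inclusion and 5 skipping reads against 3 and 22, and its difference of 0.27 was 0.168 with scaled scrambled reads. UQCRH, a subunit of respiratory complex III, had 0.30 (0.16 to 0.50) and 0.12 (0.08 to 0.16). It had 13 inclusion, 3 skipping and 28 shared reads in mimetic-treated cells against 37, 13 and 222 in control cells. Its inclusion shares of 81.3% and 74.0% differed little (unadjusted p 0.742 by Fisher's exact test).

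FXYD5, a regulator of the sodium pump, had a Ψ of 0.06 (0.02 to 0.12) in mimetic-treated cells and 0.00 (0.00 to 0.01) in control cells, from 3 inclusion and 23 skipping reads against 2 and 308 (adjusted p 0.163 by Fisher's exact test). HSPA9, the mitochondrial HSP70 chaperone, had 3 and 16 against 1 and 74 (adjusted p 0.593 by the same test). Their differences, both 0.06, became 0.0149 in FXYD5 and 0.0156 in HSPA9 after intron subtraction. Others were almost fully skipped in both groups: YWHAB, a 14-3-3 protein gene, had 1 inclusion and 69 skipping reads against 0 and 354, and IK 1 and 26 against 1 and 120. Of the 38, 9 lie inside a longer annotated exon, among them SAMHD1 (0.93 against 0.98) and NARS (0.93 against 0.99), both at high Ψ like most other members.

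**Figure D5:**
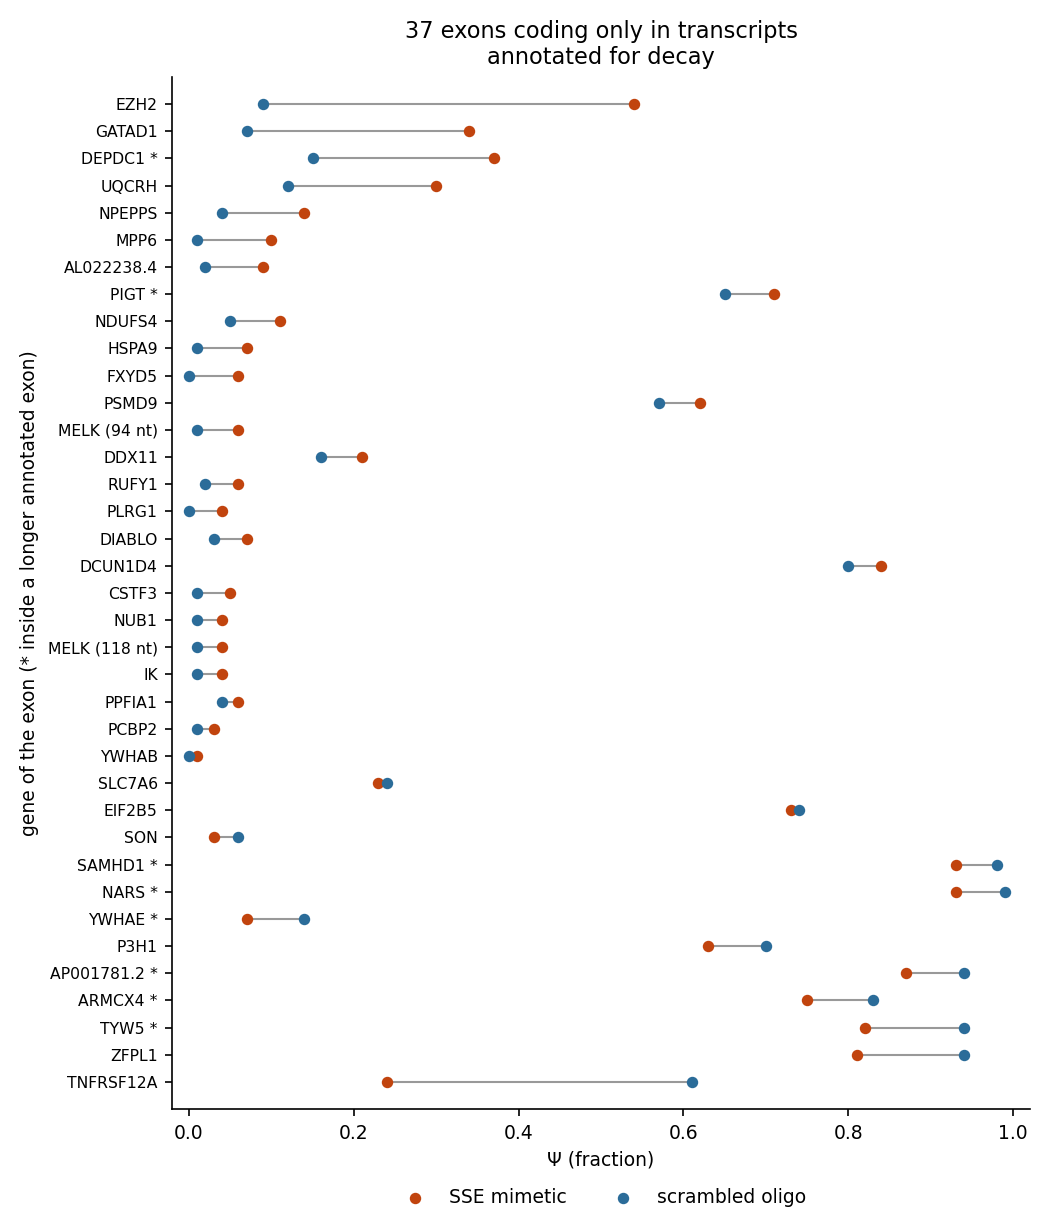
Ψ (x axis, fraction) in control cells and in mimetic-treated cells for 37 of the 38 exons that are coding only in transcripts annotated for decay, 1 row per exon, ordered by the difference; an asterisk marks those that lie inside a longer annotated exon. EZH2, GATAD1, DEPDC1 and UQCRH stand at the top with the largest differences toward inclusion, and TNFRSF12A at the bottom.

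Members with a Ψ below 0.5 in the control that are coding in protein_coding transcripts numbered 81. Their median Ψ was 0.37 in mimetic-treated cells and 0.27 in control cells, 65 lay higher and 12 lower in mimetic-treated cells, and 3 were called higher (PSMA6, TBCE and TROAP) and 1 lower (the longer RPS3 form). The median difference was 0.08, and it was 0.0898 with the 2-isoform model and 0.0462 with scaled scrambled reads. No skipping read was seen in either group for 35 of the 81 exons, among them all those called. In mimetic-treated cells alone, 47 of the 81 had no skipping read. VEGFA, the vascular endothelial growth factor, was among those not called, and was singled out after its values were known: its 97-nt exon was at 0.34 (0.17 to 0.51) and 0.10 (0.06 to 0.14), with 11 inclusion and 0 skipping reads against 22 and 18 (adjusted p 0.194 by Fisher's exact test).

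The members with the most skipping reads were almost fully skipped in both groups. RPS15A, a small-subunit ribosomal protein gene, had a 97-nt exon with 3 inclusion and 317 skipping reads in mimetic-treated cells and 24 and 2943 in control cells. RHOA, the GTPase of actin stress fibres, had 0 and 99 against 6 and 379 at a 139-nt exon, and TPM3, a tropomyosin gene, 0 and 90 against 6 and 464 at a 79-nt exon. C11orf58 had 4 and 87 against 19 and 372. Each of these exons is held by 1 of the protein_coding transcripts that span it, and Ψ was between 0.00 and 0.04 over both groups.

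The best covered members were ribosomal protein exons at full inclusion. RPLP1 had 1144 inclusion and 0 skipping reads (up to 0.262%) in mimetic-treated cells and 7330 and 1 in control cells. RPL27 had 777 and 1 against 7373 and 6. Of 2 RPS3A exons, that of 188 nt had 960 and 0 (up to 0.312%) against 10226 and 0 (up to 0.029%), and that of 104 nt 760 and 2 against 6224 and 1. Ψ was 0.99 or 1.0 in all 4 in both groups. RPS3A has 38 annotated processed pseudogenes.

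By function, 10 lists of genes were counted over the members, and they were made with earlier results of these data known. The shares to set beside these counts are 3.1% higher and 0.887% lower over all tested exons. Over all members they are 0.356% and 0.89%. Vesicle traffic genes had 84 members, with 1 called higher (SURF4), 2 lower (ANXA5 and SEC31A) and a median difference of -0.045. Protein folding and turnover genes had 105, with 1 higher (PSMA6) and 1 lower (HSP90AA1), and a median of -0.05. Chromatin and transcription genes had 98, with 2 higher (EZH2 and FOSL1), 0 lower and a median of -0.04. Translation and ribosome genes had 80, with 0 higher, 2 lower (both RPS3 forms) and a median of -0.05. Cell cycle and DNA repair genes had 69, with 1 higher (TROAP), 0 lower and a median of -0.07. Over all tested exons of the same genes, 15 of 308 were called higher and 7 lower in vesicle traffic. The counts were 16 and 6 of 408 in protein folding and 14 and 5 of 504 in chromatin. They were 7 and 6 of 372 in translation and 10 and 0 of 282 in cell cycle genes.

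No member was called among the 106 of mitochondria and metabolism or the 64 of signalling kinases, phosphatases and GTPase regulators, with medians of -0.06 and -0.05. Over all tested exons of the same genes, 11 of 437 and 16 of 356 were called higher, and 0 and 1 lower. Of the 29 members in cell death, RNA sensing and interferon genes, 1 was called lower (TNFRSF12A). Over all 100 tested exons of these genes, 5 were called higher and 2 lower. In the cytoskeletal and splicing lists the medians were -0.06 and -0.05. Every list's median thus lay below 0, between -0.07 and -0.04, beside -0.03 over all tested exons and -0.06 over all members, and 921 members were in no list.

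The calls were counted by annotation. The counts are small, and the shares to set beside them are 0.356% higher and 0.89% lower over all members. Over all tested exons these shares are 3.1% and 0.887%. Among the 817 members held by every protein_coding transcript whose coding span covers both flanking introns, 0 were called higher and 3 lower. Among the 831 others that are coding in a protein_coding transcript, 5 were called higher and 11 lower, with the same median Ψ of 0.86 in mimetic-treated cells. Where skipping would bring a stop more than 50 nt upstream of the last junction (1090 exons), 1 was called higher and 10 lower; where the stop would lie elsewhere (330), 3 were called higher and 1 lower. The median differences of these last 2 classes were -0.06 and -0.04, and their inclusion shares in control cells were 99.4% and 93.3%. These splits were made after values were seen and the differences between them were not tested.

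Median differences were much alike across classes of exon length, frame and intron length. The median was -0.06 for exons of 76 to 99 nt and of 100 nt up to 150 nt, and -0.05 for those of 150 nt up to 200 nt and of 200 nt or more. It was -0.05 for lengths of 3k + 1 (3 higher, 8 lower) and -0.06 for 3k + 2 (3 higher, 7 lower). With both introns of at least 500 and under 5000 nt (762 exons) it was -0.05, with an upstream intron of 5000 nt or more (360) -0.05, and with a downstream one (232) -0.07. The GC content was a median of 46.3% over the 1515 members whose exon sequence was read from a transcript that joins it to both flanks, and 47.0% over 14 of the 15 called lower.

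The number of exons called higher depends on how the coding span is read. When an exon needed only to overlap the coding span, 703 further exons entered, 48 of them called higher and 2 lower, and 22 passed Fisher's exact test. These added exons cross an end of a coding span, had a median Ψ of 0.62 in control cells and 0.70 in mimetic-treated cells, and are not counted among the members.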

How the data were processed

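RNA-seq of 4 MDA-LM2 samples, 2 per group, was aligned with STAR 2.7 to hg38, per the submitters' processing notes. The authors deposited MISO skipped-exon summaries, 1 pooled read set per group, per the file headers: Ψ as a fraction, its 95% bounds, read classes, and a table of Ψ differences (SSE mimetic minus scrambled) with the Bayes factor, a ratio held at 1e12 at most. How the 2 samples were pooled is not given in the sources used here.

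Each distinct exon was taken once, from its event with most isoform-specific reads, and matched to GENCODE v29 on GRCh38. Python 3.11.15, scipy 1.17.1 and pandas 2.3.3 ran the tests; the checks used a 2-isoform model on a grid of 400 Ψ values at 76-nt reads (the best of 8 lengths tried), tested on simulated data. Members had 10 to 1144 isoform-specific reads in mimetic-treated cells and 10 to 10226 in control cells. The members and gene lists were chosen with earlier results of these data known. The text names called members holding 20 or more such reads in both sets (the 15 largest differences each way), members passing Fisher's exact test, up to 2 called members per direction and list, the 6 with most skipping reads and the 4 best covered that were not called (1 of these members is not reported here); others are marked as singled out later. Intron subtraction took reads that fit neither isoform, per position of both introns, as a density and removed it from inclusion and shared reads. Alternatives covered the call limits, read minimum, Ψ recomputed, scaled or after intron subtraction, and the coding-span definition. No gene expression was analysed here.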

Additional observations from a re-analysis of the deposited data

How the results depend on the processing

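No paired analysis was possible because the deposited tables hold 1 pooled read set per group; for the same reason no replicate could be left out. Each count was recomputed under the alternatives named in the methods. For members called higher (6), the count was 1 with Fisher's exact test in place of the Bayes factor, 1 with inclusion shares in place of Ψ, 11 with the 2-isoform model, 13 after intron subtraction and 54 for exons overlapping the coding span; elsewhere it was 4 to 8. For members called lower (15), it was 8 with a Bayes factor of at least 100, 9 with at least 20 isoform-specific reads, 23 with credible intervals apart, 0 with Fisher's exact test, 1 with inclusion shares and 8 with scaled scrambled reads; elsewhere it was 14 to 22. The 1 pass of Fisher's exact test became 2 with at least 20 reads, 2 when adjusted over exons with a skipping read, 23 with overlapping exons and 0 with protein_coding transcripts alone, which drop EZH2.

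Of the exons called higher, all 6 were also called by the 2-isoform model and after intron subtraction, and 4 of 6 with scaled scrambled reads, which lost SURF4 and TBCE. Of the 15 called lower, 11 were also called by the model (not ANLN, MBNL1, VEZT and TNFRSF12A), 12 after subtraction (not ANLN, GGCT and MBNL1) and 7 with scaled reads (not ANLN, the longer RPS3 form, GGCT, MBNL1, SIKE1, VEZT, ZC3H7A and TNFRSF12A). No named difference in Ψ changed sign under these alternatives among the called exons. The causes of these shifts were not tested. Pooled reads and a median of 19 isoform-specific reads in mimetic-treated cells limit every value, and 1156 members without a skipping read could not pass Fisher's exact test.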
